A study of Olea europaea with 24 samples.

Results

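Branches of 3 olive trees (Olea europaea), trees 4, 8 and 12, were compared between 7 May and 23 May, 16 days later, within the same trees. These 6 libraries, 3 per day, were taken by tree and day from the 24 libraries of the series. The labels call trees 4, 8 and 12 dried and trees 3, 9 and 11 watered, and each of the 6 trees was also sampled on 6 June and 29 July. The labels give 1.2 litres of water per day for irrigation. Dried trees received 1 litre per week over 2 weeks and nothing over the following 2 weeks. The labels do not place these weeks on the calendar, so the water that a dried tree had received by 23 May is not known here, and the series title adds heat to drought and recovery. Within the dried trees the date and any change of irrigation cannot be told apart. Age and cultivar are not given. RNA was extracted from whole frozen branches and poly-A transcripts were sequenced, and in such a mixed tissue fewer cells of a type and less RNA per cell cannot be told apart. The count table names 97 of its 50663 rows, all of them families of carbohydrate metabolism, and gives the other 50566 rows gene model IDs without names, so the branch tissue could not be checked against marker genes.

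Branches of woody plants store carbon as starch in plastids. ADP-glucose pyrophosphorylase makes the glucosyl donor ADP-glucose, starch synthases extend the glucan chains and branching enzymes add branch points. In cells without photosynthesis the carbon enters the plastid as hexose phosphate, through a glucose phosphate translocator of the inner envelope. In breakdown, as known from Arabidopsis, glucan water dikinase phosphorylates the granule surface, beta-amylases release maltose, and maltose and glucose leave by their own exporters. Sucrose synthases and invertases cleave sucrose, and hexokinases phosphorylate the released hexoses. The short names in the table were read as these families from their spelling, and no sequence was at hand to check them.

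The 6 libraries were of similar size but differed in composition. Total expected counts were 7635823, 6675360 and 6852233 in trees 4, 8 and 12 on 7 May and 7277369, 7333232 and 8687727 on 23 May. A set of 19 abundant rows without names that moved together held 28.3%, 47.7% and 16.4% of the count in these trees on 7 May and 47.1%, 86.2% and 67.4% on 23 May, a mean of 30.8% ± 15.8 (SD, n = 3) against 66.9% ± 19.5 (SD, n = 3). These rows were chosen because their shares moved together over the 24 libraries, so a common sign among them is not independent evidence. All 19 rows had a positive log2 fold change between the days (median 3.26), but none was called (smallest adjusted p = 0.214, edgeR quasi-likelihood test). Each tree had the larger share on 23 May. The count left for every other row therefore ran from 1013215 in tree 8 on 23 May to 5730466 in tree 12 on 7 May. The 7 May library of tree 12 stood apart from its group. Across all tested rows, which are not independent replicates, its log2 levels correlated by 0.834 with tree 4 on 23 May, by 0.764 with its own 23 May library and by 0.658 with tree 8 on 23 May. With trees 4 and 8 on 7 May, which correlated by 0.896 with each other, it correlated by 0.723 and 0.758. Whether the day label of this library is right was not tested, and counts of calls are also given without it.

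**Figure D1:**
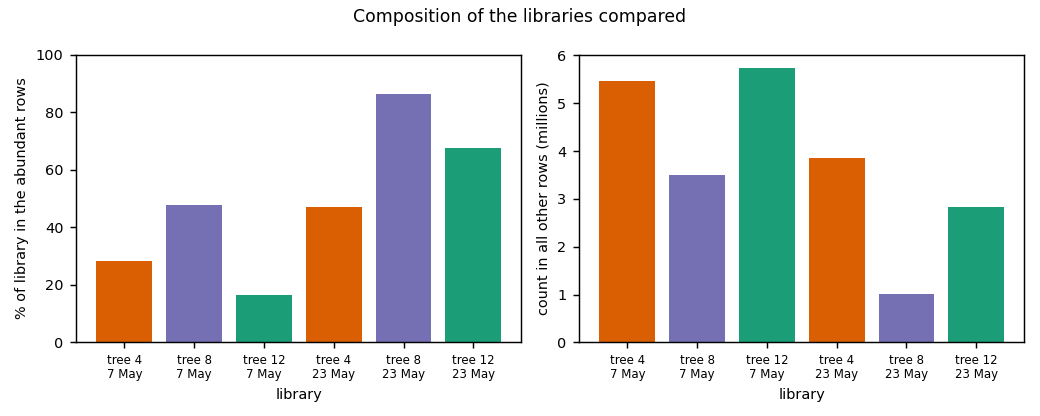
Left, percentage of each library's expected count held by the 19 abundant rows; right, expected count in all other rows; bars are the 6 libraries, coloured by tree, on linear axes from 0. Tree 8 on 23 May has the tallest bar on the left, 86.2%, and the shortest on the right, 1013215 counts.

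On 23 May rows for 2 beta-amylases, a glucan water dikinase and an invertase were higher than on 7 May in each dried tree, with fitted folds over the 3 trees of 3.13 to 30.3. A single row each for an ADP-glucose pyrophosphorylase, a starch synthase, a starch branching enzyme, a plastid glucose phosphate translocator and a sucrose synthase was lower, led by agp2 at a fitted 88.8-fold. In all, 851 of 26659 rows tested (3.19%) were called, 335 higher (1.26%) and 516 lower (1.94%) on 23 May, at a Benjamini-Hochberg adjusted p under 0.05 by edgeR's quasi-likelihood test with the tree as a block. The changes were large. Rows called higher had a median log2 fold change of 3.40, and 130 of the 335 rose at least 16-fold. Rows called lower had a median of -3.96, and 251 of the 516 fell at least 16-fold. The levels of the 2 days did not overlap in 332 of the 335 and 510 of the 516, against 27.6% of all rows in either direction. The called rows were picked by the test on these same libraries. Their large changes and lack of overlap therefore follow largely from that choice and are no separate support. Across all rows tested the median log2 fold change was -0.27. The 3 trees did not contribute equally. Median changes of the rows called higher were 3.49, 3.22 and 2.91 log2 CPM (counts scaled by TMM effective library sizes) in trees 4, 8 and 12, and those of the rows called lower were -3.57, -4.86 and -2.58. In 310 of the 516 rows called lower, tree 12 had the lowest of the 3 levels on 7 May, on the side of 23 May. In 166 of the 335 rows called higher it had the highest. Over all rows tested, whatever their direction of change, tree 12 was the lowest on 7 May in 41.3% and the highest in 36.9%. Of the rows called lower, 48.8% had 0 counts in tree 8 on 23 May, against 28.0% of all rows tested. The part of depth, of the abundant rows and of the library of tree 12 in these calls was not tested beyond the counts that follow. Leaving out tree 4 left 1 call, leaving out tree 8 left 7 and leaving out tree 12 gave 1424. Without the 23 May library of tree 8 alone there were 133 calls, 96 higher and 37 lower, and without the 7 May library of tree 12 alone there were 2460. The fit without the tree block called 1781 rows, and the fit to all 24 libraries, which shares its estimate of the spread with the watered trees, called 6.

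The IDs with the largest changes, among called rows with a mean of at least 1 log2 CPM, went between very few reads and many. Row Oeu052284.1 had 0 counts in all 3 trees on 7 May and 573, 198 and 497 counts in trees 4, 8 and 12 on 23 May, at least 1028-fold higher when the 7 May group is set to 3 counts in all. Row Oeu044479.1 went from 4, 1 and 1 counts to 2114, 235 and 2026. Both were high in every dried 23 May library and near or at 0 in every dried 7 May library. Row Oeu040218.1 had 4443, 4376 and 192 counts on 7 May and 3, 0 and 3 on 23 May (log2 fold change -9.32 ± 2.24 SE, adjusted p = 0.0486, edgeR). Row Oeu020803.1 had 4145, 4730 and 281 counts against 0, 0 and 4 (-9.27 ± 2.20 SE, adjusted p = 0.0465, edgeR). Both of these rows were lower in tree 12 than in trees 4 and 8 on 7 May. In watered trees, fitted with all 24 libraries, Oeu052284.1 and Oeu044479.1 changed by 4.27 ± 2.37 and 2.78 ± 2.36 (SE) between these days. Rows Oeu040218.1 and Oeu020803.1 changed by 0.65 ± 3.04 and -2.18 ± 2.03 (SE). For none of these IDs was the difference between dried and watered trees called (adjusted p = 0.705, edgeR).

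Of the 97 rows with a short name 84 were tested, and 9 of them were called, 4 higher and 5 lower. The authors picked these rows and may have used these libraries to do so, so their share is not independent evidence beside the 3.19% of all rows. The other 13 had too few reads in the dried libraries; they were 7 invertases, bamylase5, hexokinase7, pgm3, sbe2, sbe5 and starchp4. Of the 84 tested rows 27 had a positive and 57 a negative log2 fold change, with a median of -0.48 against -0.27 over all rows. The levels of the 2 days did not overlap in 14 rows that were higher and 23 that were lower on 23 May, against 27.6% of all rows in either direction and 17.6% lower. All 9 called rows passed without the tree block and in the fit without the 19 abundant rows. Without tree 4 none passed (adjusted p from 0.108 to 0.311, edgeR), without tree 8 none (0.0830 to 0.222), and without tree 12 all but aglucan2 and sbe1. Without the 23 May library of tree 8 only agp2, bamylase10 and invertase11 passed, and without the 7 May library of tree 12 all but aglucan2. In the fit to all 24 libraries none passed (adjusted p from 0.106 to 0.198), and in the fit to the 6 libraries alone only bamylase10 and invertase11 did. Every alternative left the sign of each of the 9 as it was.

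**Figure D2:**
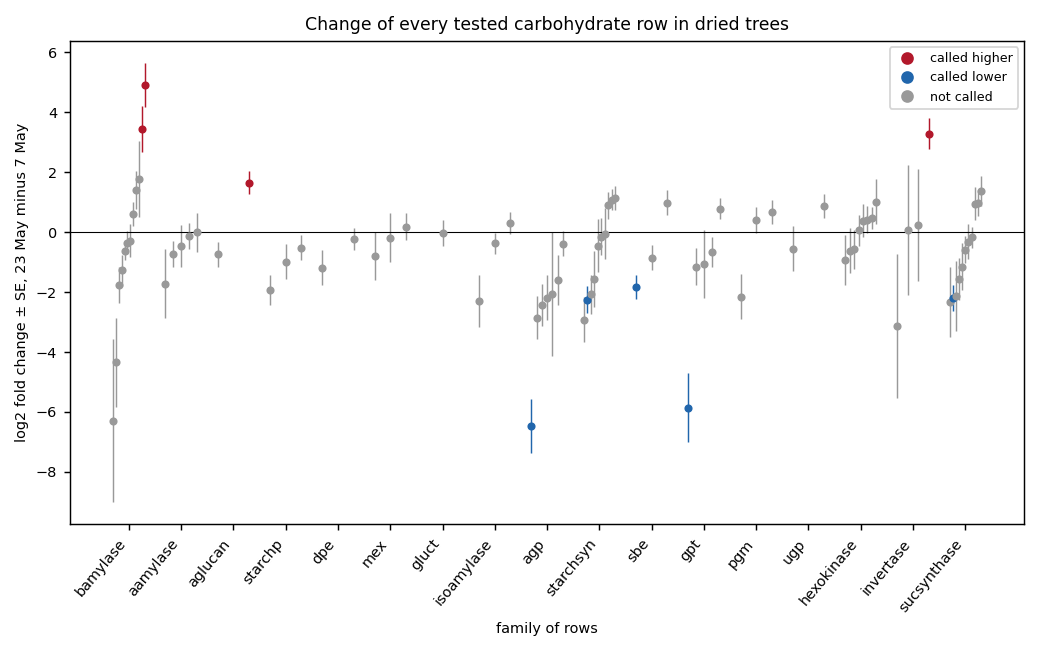
Log2 fold change, 23 May minus 7 May in dried trees, with its standard error (vertical lines), for each of the 84 tested carbohydrate rows, sorted by value within families on the x axis; red and blue mark the 4 rows called higher and the 5 called lower. The 7 agp rows all lie below 0, and 2 bamylase rows lie above 3 while most of that family lies near or below 0.

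Among rows of starch breakdown, 2 of the 12 tested beta-amylases and 1 of the 2 tested glucan water dikinases were called higher, against 1.26% of all rows tested. Beta-amylases cut maltose units from the chain ends of starch. Row bamylase10 stood at 5.38, 6.46 and 6.32 log2 CPM in trees 4, 8 and 12 on 7 May and at 11.14, 10.48 and 11.35 on 23 May. Every tree gained at least 4 log2 units and the days did not overlap. The log2 fold change of 4.92 ± 0.74 (SE of the fit, adjusted p = 0.00886, edgeR) corresponds to a level 30.3-fold higher. Row bamylase2 went from 5.87, 7.37 and 8.48 to 11.02, 10.71 and 10.69 log2 CPM. The trees were spread on 7 May, with tree 12 the highest and tree 4 the lowest, and close together on 23 May. The change was 3.45 ± 0.77 (SE, adjusted p = 0.0385, edgeR), or 10.9-fold higher. The 10 other tested beta-amylases were not called. Row bamylase11 was at 6.56, 6.84 and 8.50 against 8.91, 9.05 and 8.32 log2 CPM, so that it was higher in trees 4 and 8 and slightly lower in tree 12 (1.42 ± 0.64 SE, adjusted p = 0.217). Row bamylase3 had the same layout, with 0.86, -0.02 and 5.18 on 7 May against 4.82, 5.43 and 3.88 (1.76 ± 1.27 SE, adjusted p = 0.452). In both rows the 7 May value of tree 12 lay within the range of 23 May. At the low end, bamylase13 had 3.69, 3.08 and 0.50 log2 CPM on 7 May and -2.57, -2.57 and -0.10 on 23 May, where -2.57 stands for 0 counts, and it did not pass (-4.35 ± 1.48 SE, adjusted p = 0.125). Row bamylase4 had 0 counts in all 3 trees on 23 May and in tree 12 on 7 May, was at least 5.21-fold lower with the 23 May group set to 3 counts in all, and did not pass (adjusted p = 0.231).

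The glucan water dikinase row aglucan2, named for the enzyme that primes the granule for attack, rose from 4.45, 3.80 and 4.21 to 5.93, 5.45 and 6.04 log2 CPM. The days did not overlap, and tree 8 was the lowest on both. The change was 1.64 ± 0.39 (SE, adjusted p = 0.0456, edgeR), or 3.13-fold, just under the threshold, and its call was lost in 9 of 15 alternatives. The other row of the family, aglucan1, was at 5.39, 4.78 and 4.84 on 7 May and at 4.69, 3.87 and 4.22 on 23 May (adjusted p = 0.325). The remaining breakdown rows were not called. The 5 tested alpha-amylases, which cut inside the chains, all had negative values, from -1.72 to -0.01. The 3 tested starch phosphorylases ranged from -1.94 to -0.52, and starchp3 was at 6.91, 5.89 and 5.02 against 4.44, 3.34 and 4.54 log2 CPM without overlap (adjusted p = 0.0613, edgeR). The exporters, 3 mex rows for maltose and gluct1 for glucose, lay between -0.79 and 0.19. Over the 29 tested rows of breakdown 7 were positive and 22 negative, with a median of -0.38 against -0.27 over all rows. This set also holds isoamylase3 and the rows dpe1 and dpe2, read as disproportionating enzymes. Row isoamylase3, whose own value is this median, was placed with breakdown by the number in its short name alone.

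Among rows of starch synthesis, 3 of 22 tested rows were called lower and none higher, where 1.94% of all rows tested were called lower. Row agp2, of ADP-glucose pyrophosphorylase, stood at 7.84, 5.88 and 5.98 log2 CPM in trees 4, 8 and 12 on 7 May and at -0.70, 0.22 and 1.76 on 23 May. In counts these were 4182, 574 and 907 reads against 4, 2 and 21. Each tree went from at least 574 reads to 21 or fewer, tree 12 less far than the others. The log2 fold change was -6.47 ± 0.90 (SE of the fit, adjusted p = 0.00604, edgeR), or 88.8-fold lower. The other 6 agp rows were also negative, from -2.85 to -0.39, and none was called. Row agp5 was at 3.59, 3.26 and 2.84 against 1.20, -2.57 and 0.76 log2 CPM (-2.85 ± 0.70 SE, adjusted p = 0.0531, edgeR). The lowest value, in tree 8, stands for 0 counts in the library with the fewest reads outside the abundant rows. The rows agp1 (-2.42 ± 0.69 SE, adjusted p = 0.0788) and agp3 (-2.18 ± 0.74 SE, adjusted p = 0.125) had the same order of days without overlap. The median of the 7 agp rows was -2.18.

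The starch synthase row starchsyn8 fell from 4.51, 4.01 and 4.09 to 1.82, 1.12 and 2.65 log2 CPM, by 2.26 ± 0.45 (SE, adjusted p = 0.0280, edgeR). All 3 trees were lower on 23 May without overlap. The branching enzyme row sbe1 fell from 6.17, 5.86 and 6.40 to 4.78, 3.66 and 4.49, by 1.82 ± 0.39 (SE, adjusted p = 0.0349, edgeR). Again the days did not overlap, and the 7 May levels had an SD of 0.27 (n = 3). The starch synthases did not share one direction. Row starchsyn4 was at 9.19, 7.82 and 7.02 on 7 May and 6.37, 5.34 and 6.80 on 23 May (-2.08 ± 0.66 SE, adjusted p = 0.102, edgeR). The decrease was largest in tree 4 and under 0.3 in tree 12. Row starchsyn1 was at 3.10, 2.45 and 2.93 against 0.60, -2.57 and 0.31 (-2.91 ± 0.76 SE, adjusted p = 0.0619). Opposite in sign were starchsyn3, at 4.06, 4.18 and 4.82 against 5.75, 5.03 and 5.58 (1.14 ± 0.41 SE, adjusted p = 0.137), and starchsyn2 (1.09 ± 0.35 SE, adjusted p = 0.112). Neither passed, although in both the days did not overlap. Of the debranching enzymes counted with synthesis, isoamylase2 was at -2.30 ± 0.88 (SE, adjusted p = 0.161). Over the 22 tested rows of synthesis 5 were positive and 17 negative, with a median of -1.58, and 12 were lower without overlap between the days, against 17.6% of all rows.

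The hexose phosphate translocators bring carbon into the plastid for starch synthesis, and 1 of 5 rows was called lower, against 1.94% of all rows tested. Row gpt2 had 600, 47 and 144 counts in trees 4, 8 and 12 on 7 May and 0, 0 and 5 on 23 May. On the log2 CPM scale it stood at 5.05, 2.31 and 3.35 against -2.57, -2.57 and -0.10. Only tree 12 kept reads of it on 23 May. The log2 fold change was -5.85 ± 1.16 (SE, adjusted p = 0.0261, edgeR). It was -11.03 when tree 12 was left out. The 4 other translocators were not called. Row gpt1 was at 5.22, 5.51 and 5.86 against 6.49, 6.10 and 6.33 (0.78 ± 0.35 SE, adjusted p = 0.220), higher in all trees, while gpt5 was at 6.31, 6.00 and 4.33 against 5.18, 4.91 and 5.17 (-0.66 ± 0.50 SE, adjusted p = 0.478).

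Among rows that cleave sucrose, 1 of 4 tested invertases was called higher and 1 of 11 sucrose synthases lower, beside 1.26% and 1.94% of all rows. Invertases hydrolyse sucrose to glucose and fructose, and row invertase11 went from 1.20, 1.74 and 0.76 to 4.58, 4.56 and 4.15 log2 CPM. The 3 trees gained between 2.83 and 3.39 log2 units, so the row moved alike in each. The change was 3.29 ± 0.52 (SE, adjusted p = 0.0109, edgeR), or 9.75-fold higher. The 3 other tested invertases were split by tree. Row invertase1 was at -2.57, -2.57 and 2.71 log2 CPM on 7 May and at -1.84, -0.58 and -2.57 on 23 May (-3.14 ± 2.40 SE, adjusted p = 0.481). In counts these were 0, 0 and 92 against 1, 1 and 0, so its higher levels in trees 4 and 8 rest on 1 read each. Row invertase2 was at -0.72, 0.12 and 6.87 on 7 May and at 4.45, 5.23 and 0.63 on 23 May, and invertase8 at -0.02, 1.00 and 6.32 against 4.24, 5.25 and 2.00. In all 3 rows trees 4 and 8 were higher on 23 May and tree 12 lower, and the fitted changes of invertase2 and invertase8 were 0.09 ± 2.17 and 0.25 ± 1.87 (SE). Sucrose synthases cleave sucrose to UDP-glucose and fructose, and row sucsynthase11 fell from 5.80, 5.88 and 5.06 to 3.63, 2.94 and 3.58 log2 CPM. The days did not overlap. The change was -2.21 ± 0.43 (SE, adjusted p = 0.0248, edgeR). The 10 other sucrose synthases were not called and spanned both signs, from -2.32 to 1.37. Row sucsynthase4 was at 6.84, 7.41 and 6.88 against 8.26, 7.42 and 8.53 (0.95 ± 0.54 SE, adjusted p = 0.336), with tree 8 nearly level. The rows sucsynthase6, sucsynthase7, sucsynthase8 and sucsynthase10 were lower on 23 May in trees 4 and 8 and higher in tree 12.

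None of the rows for hexose phosphorylation or hexose phosphate conversion was called. The 8 tested hexokinases lay between -0.92 and 1.02, and hexokinase4 was at 4.15, 4.18 and 4.37 against 4.92, 4.40 and 4.68 log2 CPM (0.47 ± 0.37 SE, adjusted p = 0.493). Row hexokinase6 had the highest value of the family, 1.02 ± 0.76 (SE, adjusted p = 0.469). Phosphoglucomutase interconverts the glucose phosphates, and pgm4 was at 3.30, 2.31 and 1.03 against 0.24, 0.22 and 0.48 log2 CPM (-2.15 ± 0.75 SE, adjusted p = 0.132). Row pgm2 was at 6.62, 6.54 and 6.51 against 7.33, 6.97 and 7.41, higher in every tree but not called (0.66 ± 0.40 SE, adjusted p = 0.369). UDP-glucose pyrophosphorylase makes the glucosyl donor for sucrose synthesis, and ugp1 was at 5.96, 6.03 and 5.35 against 7.05, 6.07 and 6.75 (0.86 ± 0.40 SE, adjusted p = 0.236).

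**Figure D3:**
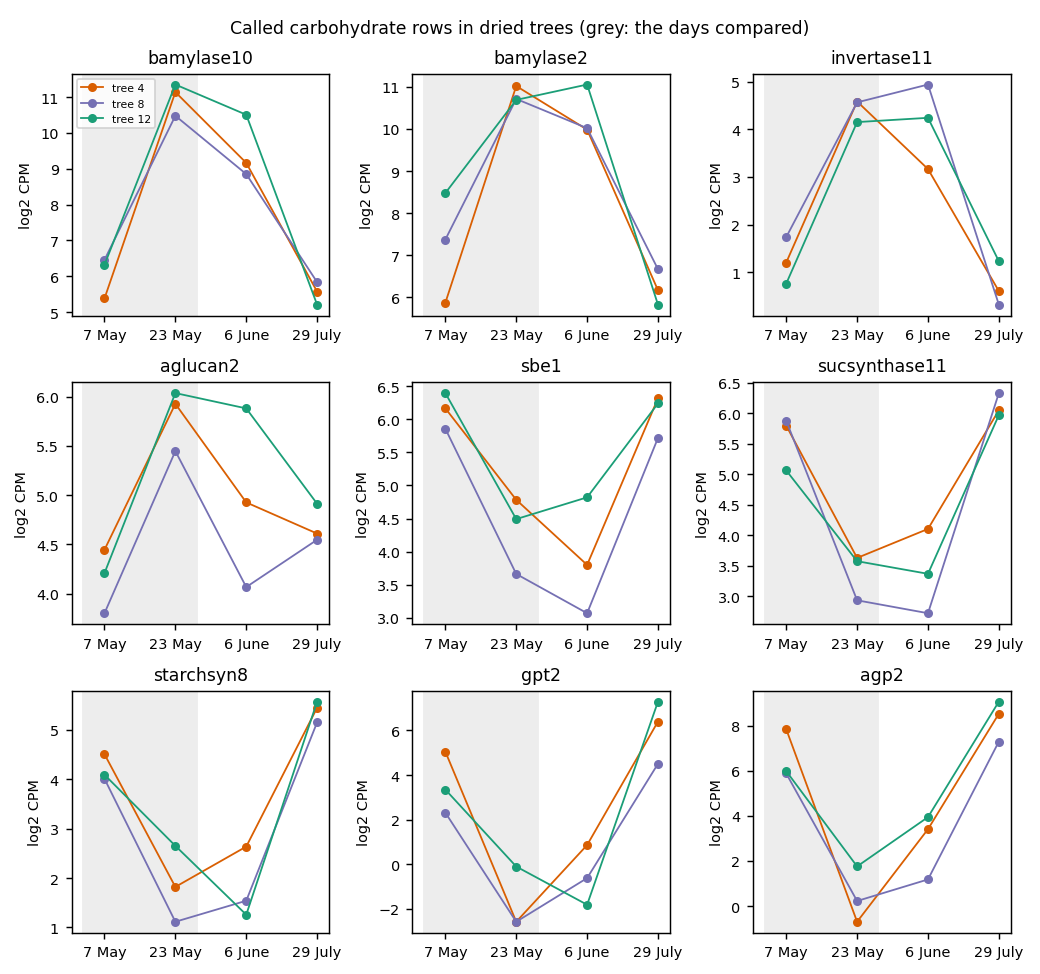
Level in log2 CPM (prior count 2; y axes differ between panels) of the 9 called carbohydrate rows in dried trees 4, 8 and 12 on the 4 sampling days; lines join libraries of a tree and grey marks the days compared. In every panel the 7 May and 23 May points do not overlap, and on 29 July agp2 stands at 8.53, 7.29 and 9.07 and bamylase10 at 5.57, 5.84 and 5.21.

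The same trees on 6 June, 30 days after the first sampling, are set beside these values; both comparisons use the same 7 May libraries, so the second is no independent test of the first. On 6 June 1827 of 26659 rows (6.85%) were called against 7 May, 754 higher and 1073 lower, including 18 rows with a short name. That count was 3643 without the tree block, 0 without tree 4, 27 without tree 8 and 4012 without the 7 May library of tree 12. Row bamylase10 was at 9.16, 8.85 and 10.51 log2 CPM in trees 4, 8 and 12 on 6 June, below its 23 May level in each tree. Row bamylase2 was at 9.98, 10.02 and 11.05 and invertase11 at 3.16, 4.94 and 4.24. In tree 4 both were lower than on 23 May, and in tree 12 both were higher. Row aglucan2 was at 4.93, 4.07 and 5.88, which overlapped its 7 May levels (log2 fold change against 7 May 0.86 ± 0.38 SE, adjusted p = 0.171, edgeR). Of the rows that fell, agp2 was at 3.41, 1.18 and 3.94 on 6 June, above 23 May in each tree and still below 7 May (-3.96 ± 0.76 SE, adjusted p = 0.0189). Row gpt2 was at 0.86, -0.62 and -1.81 (-4.55 ± 1.03 SE, adjusted p = 0.0309). Row starchsyn8 was at 2.64, 1.54 and 1.26, sbe1 at 3.80, 3.07 and 4.82 and sucsynthase11 at 4.11, 2.73 and 3.37. The ranges of these 3 rows overlapped those of 23 May. On 29 July none of the 9 rows overlapped its 23 May levels. Row gpt2 was at 6.39, 4.50 and 7.29, starchsyn8 at 5.45, 5.15 and 5.57, bamylase2 at 6.17, 6.67 and 5.83 and invertase11 at 0.61, 0.32 and 1.23.

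Watered trees 3, 9 and 11 span the same dates and share no library with the dried trees. In a fit to all 24 libraries with the tree as a block, no row (0.00% of 29107) was called between 23 May and 7 May in watered trees by edgeR. Before adjustment 2888 had a p under 0.05, and DESeq2 called 890. The test of the difference itself, the change of dried trees minus that of watered trees, also called no row (0.00% of 29107) by edgeR, although 1813 had a p under 0.05 before adjustment and DESeq2 called 85. By edgeR none of the 851 calls is therefore shown to differ from the change in watered trees. The 851 came from the fit to the dried libraries alone. In the fit to all 24 libraries the dried trees had 6 calls, and 5292 rows had a p under 0.05 before adjustment. The 0 of the watered trees and the 851 are thus not like for like. Of the 335 rows called higher in dried trees 81.5% had a positive value in the watered fit, and of the 516 called lower 81.4% had a negative one, against 50.1% and 49.9% of all rows. The watered trees did not move together. In tree 3, 97.0% of the rows called higher were higher on 23 May and 99.8% of those called lower were lower. In tree 11 these shares were 60.9% and 73.1%, with median changes of 0.36 and -0.70 log2 CPM. In tree 9 they were 26.6% and 12.6%, so most rows moved against the dried trees. Without tree 3 the shares in the watered fit were 32.2% and 41.7%, and without the 7 May library of tree 9 they were 98.2% and 95.5%. That library correlated on average by 0.689 with the dried libraries of 23 May and by 0.582 with those of 7 May, whereas the 7 May libraries of trees 3 and 11 correlated by 0.881 and 0.886 with dried 7 May. Whether the day label of the tree 9 library is right was not tested. On 23 May tree 3 correlated by 0.811 with dried 23 May and 0.737 with dried 7 May, and tree 11 by 0.754 and 0.824.

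**Figure D4:**
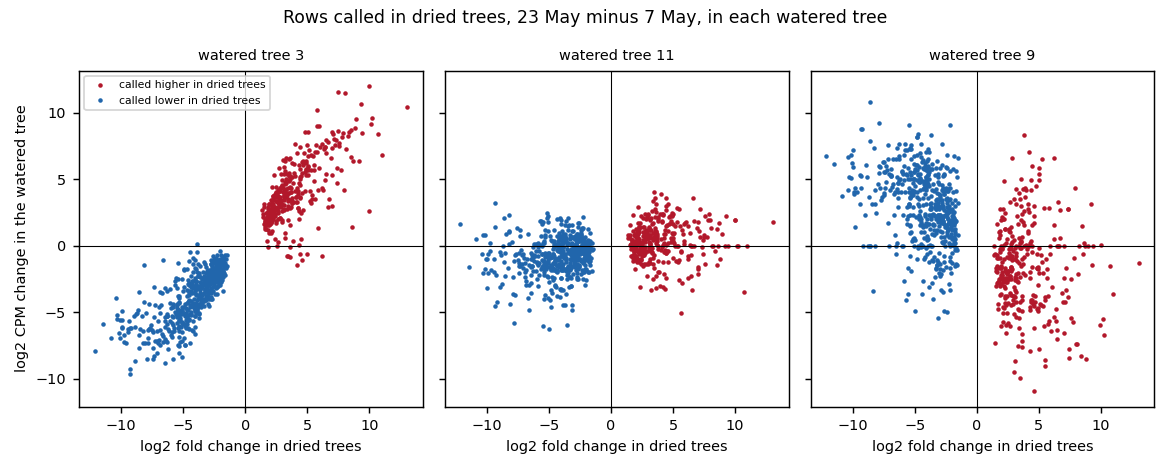
Each point is a row called in dried trees, with its fitted log2 fold change in dried trees (x) and its log2 CPM change between the same days in 1 watered tree (y); red rows were called higher and blue rows lower. In tree 3 the points follow the sign of the dried trees in 97.0% and 99.8% of rows, in tree 11 in 60.9% and 73.1%, and in tree 9 in 26.6% and 12.6%.

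The watered trees also differed from each other in the called carbohydrate rows. Levels here come from the scaling of all 24 libraries and differ slightly from those above. Row bamylase10 went from 5.22, 9.78 and 6.32 log2 CPM in watered trees 3, 9 and 11 to 10.55, 8.01 and 8.59 (log2 fold change 1.60 ± 1.32 SE). It was higher on 23 May in trees 3 and 11 and lower in tree 9. Row bamylase2 went from 6.30, 12.24 and 8.21 to 10.67, 8.04 and 8.89, with the highest level of the 12 May libraries in tree 9 on 7 May. Row invertase11 went from 0.64, 5.63 and 0.71 to 5.38, 0.89 and 0.23. Trees 3 and 9 exchanged levels, and tree 11, low on both days, held no rise like that of the dried trees. Row agp2 went from 8.32, 3.04 and 7.65 to 2.64, 3.26 and 4.10 (-3.28 ± 1.06 SE, adjusted p = 0.401, edgeR). It was lower on 23 May in trees 3 and 11 and about level in tree 9, where it was already low. Row gpt2 was lower on 23 May in all 3 watered trees, with 4.60, 4.63 and 3.43 against -0.74, 1.95 and 0.40 (-3.54 ± 1.04 SE, adjusted p = 0.381, edgeR). As means over the watered trees (± SD, n = 3), aglucan2 went from 4.75 ± 0.40 to 5.25 ± 1.47 log2 CPM. Row sbe1 went from 5.43 ± 1.82 to 5.14 ± 0.39 and sucsynthase11 from 5.04 ± 1.99 to 4.83 ± 0.89.

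**Figure D5:**
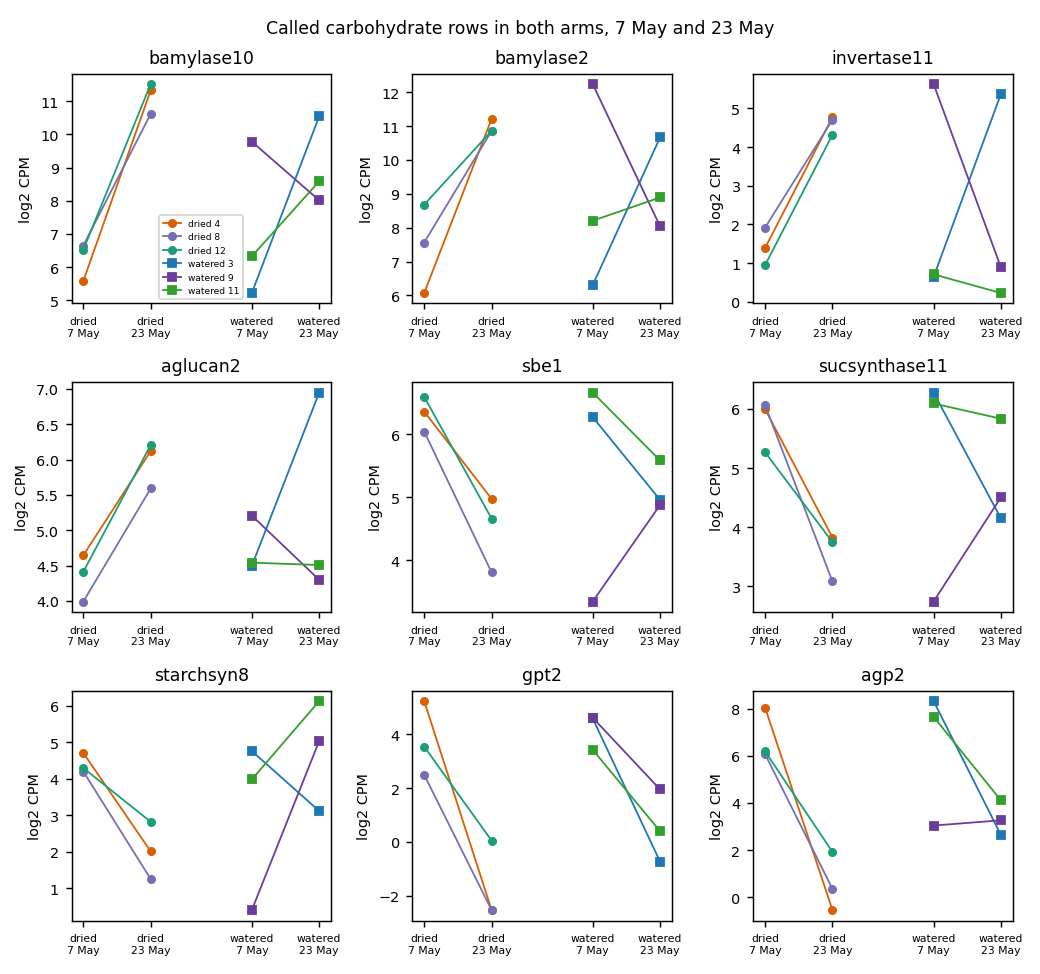
Level in log2 CPM, scaled over all 24 libraries (y axes differ between panels), of the 9 called carbohydrate rows on 7 May and 23 May in the 3 dried (circles) and 3 watered trees (squares); lines join libraries of a tree. Watered tree 9 starts at 12.24 for bamylase2 and 5.63 for invertase11 on 7 May, and gpt2 declines in all 6 trees.

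The 4 carbohydrate rows with the smallest p for the difference between arms were starchsyn8, starchsyn1, agp5 and bamylase9, none called by edgeR. Row starchsyn8 went from 4.76, 0.40 and 3.98 log2 CPM in watered trees 3, 9 and 11 to 3.12, 5.03 and 6.13, while it was lower on 23 May in each dried tree. The change of dried trees minus that of watered trees was -3.86 ± 1.13 log2 units (SE, adjusted p = 0.705 by edgeR and 0.0408 by DESeq2), and -3.16 without the 7 May library of watered tree 9. Watered tree 3 was lower on 23 May, like the dried trees, and trees 9 and 11 were higher. The others were agp5 (-4.24 ± 1.52 SE), starchsyn1 (-3.56 ± 1.27 SE) and bamylase9 (-2.25 ± 0.90 SE), each with an adjusted p of 0.705 by edgeR and none called in any alternative. In dried trees bamylase9 was at 3.52, 3.57 and 4.38 log2 CPM on 7 May and 3.68, 1.66 and 2.15 on 23 May, level in tree 4 and lower in trees 8 and 12 (adjusted p = 0.182).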

How the data were processed

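RNA of branches from 6 olive trees on 4 days was sequenced in 24 libraries. Per the submitters' processing notes, cutadapt, Bowtie2, RSEM, DESeq2 and limma were used, and versions, genome build and annotation are not given in the sources used here. In the main deposited table the values are expected counts, as the authors' RSEM run estimated them, and rows of 1 family can share reads. A second deposited table holds signal values equal to the rounded counts divided by 1 constant per library. From the remaining table, the authors' log2 fold changes and adjusted p-values were read. The gene table of assembly O_europaea_v1 matched 0 of the 50566 IDs.

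Expected counts were rounded and tested with edgeR 4.0.16 in R 4.3.3 (TMM, filterByExpr by group, quasi-likelihood) on the 12 dried libraries, with the tree as a block and Benjamini-Hochberg adjustment over all 26659 rows. Libraries are paired by tree, since each tree was sampled on each day, although deviations from the group means of libraries of 1 tree correlated by 0.02, 0.08 and -0.17 in trees 4, 8 and 12. The largest such correlation with another tree was higher in each case, at 0.12, 0.14 and 0.14. The watered contrast and the difference between arms came from 1 fit to all 24 libraries. A row was called at an adjusted p under 0.05. A standard error is the size of the log2 fold change divided by the root of the F statistic of the fit. It is not the spread of the changes over the trees. Levels are log2 CPM (prior count 2) without adjustment for length, so they compare libraries and not rows. Folds and floors from counts cover counting error only. The abundant rows were those with at least 0.5% of the count of some library whose share correlated by over 0.95 with that of the leading row.

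Named rows were to be those called, or those whose log2 fold change was at least 1 in size with all 3 trees moving alike, up to 12 per direction, and up to 2 IDs per direction. The rule gave 21 rows with a short name, and the other rows given with values were chosen after those were seen. Members, lists and rules were chosen with earlier results of these data known. The alternatives were DESeq2 1.42.0, its size factors, no filter, limma 3.58.1 on log2(value + 1) of the scaled values, voom weights, other sets of libraries, no block and each tree left out. Added after the data were seen were fits without the 23 May library of tree 8, the 7 May library of tree 12, the 7 May library of watered tree 9 and the 19 abundant rows. The fits were tested on simulated counts.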

Additional observations from a re-analysis of the deposited data

How the results depend on the processing

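The count of 851 rows called between 23 May and 7 May in dried trees and the count of 1827 between 6 June and 7 May moved widely, and the cause was not tested. They were 1781 and 3643 without the replicate block, 6 and 0 with all 24 libraries and the block, and 42 and 316 with all 24 libraries and no block. DESeq2 gave 4224 and 6298, no filter 3739 and 5134, limma on the authors' scaled values 1650 and 2932, and voom weights 2992 and 3056. With a tree left out the counts ranged from 1 to 1424 and from 0 to 1765. The 6 libraries of both days alone gave 267 for 23 May, and without the 23 May library of tree 8 there were 133, of which 72.2% were higher, against 39.4% of the 851. Without the 7 May library of tree 12 the counts were 2460 and 4012. DESeq2's size factors gave 910 and 1948. In watered trees the count of 0 became 6 without the block, 890 with DESeq2 and 12 with no filter, and the difference between arms had 85 calls with DESeq2 and 10 without tree 3. The share of rows called higher in dried trees that were higher in watered trees was 98.2% without the 7 May library of watered tree 9 and 32.2% without tree 3. For rows called lower these shares were 95.5% and 41.7%, and 87.6% without the block. No alternative reversed the sign of a named row.

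Depth outside the abundant rows was lowest in tree 8 on 23 May among the libraries compared, at 1013215 counts, and 28.0% of the rows tested had 0 counts there. How far this depth limits the low rows was not tested.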

Other observations

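In the authors' deposited table, the comparison named ctrl_0 and drought_1, whose libraries the table does not state, has 26927 rows with 2795 at an adjusted p under 0.05, 1868 with positive and 927 with negative log2 fold changes. Among the 84 rows with a short name and a value, 16 were under 0.05, including all 9 called here between 23 May and 7 May in dried trees. The sign in the authors' deposited table is opposite to that used here, with -4.88 for bamylase10 and 6.45 for agp2. In the fit to all 24 libraries the dried trees had 4.89 and -6.49 for these rows between 23 May and 7 May. The sizes nearly match, though those of bamylase4, a row with few counts, lay further apart (4.13 against -6.44). The authors' comparison probably used the same libraries, so the shared calls are no independent evidence.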
